A study of Mus musculus with 25 samples.

Results

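WT31 and B16F10 luc2 are murine melanoma cell lines that the study placed on the same side of its main comparison, the lines that colonized the liver with high or intermediate efficiency, and the question addressed here is how far their transcriptomes differ from each other in culture. All 10 libraries labeled as one of these lines were taken, 5 of WT31 and 5 of B16F10 luc2, out of 25 in the series. WT31 was derived from mice of the genotype Tyr::NrasQ61K/°; INK4a-/-, in which the tyrosinase promoter directs an activated Nras to pigment cells and Ink4a is deleted in the germ line. B16F10 luc2 is a purchased subline of B16 that carries a luciferase reporter, and the study lists a mutation of Trp53 but none of Braf, Kit or Nras for it. Both lines were untreated, grown in the same medium by the study's methods and lysed at a confluency of 50%. Each line is a single line, so the 5 libraries are separate cultures of the same cells and the p-values below measure the spread between cultures only. The labels give no date or batch, and a difference between the lines cannot be told apart from a difference between the animals they came from.

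Melanoma cells descend from melanocytes, which arise from the neural crest. The transcription factor MITF, together with SOX10 and PAX3, directs the melanocyte program and drives the genes of the melanosome, the organelle in which tyrosinase and its relatives make melanin. Signals from the receptor tyrosine kinase KIT, the endothelin receptor EDNRB and WNT ligands act upstream of MITF, and the RAS to ERK cascade, which is activated by mutant NRAS, drives proliferation.

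Both sets of libraries carried the markers of melanocytes. Of 12 melanocytic markers, 10 were above 10 CPM (counts scaled to 1000000 per library, with TMM factors) in every library of both lines (Sox10, Pax3, Mitf, Tyr, Tyrp1, Dct, Pmel, Mlana, S100b and Gpr143), while Kit and Ednrb were low or absent in B16F10 luc2. Summed over its list, leukocyte markers reached at most 12.3 CPM, mostly Lyz2, keratinocyte markers at most 2.46 CPM and endothelial markers at most 3.26 CPM in any library, and Ptprc, Adgre1, Cd3e, Cdh5, Krt5 and Krt14 were at or near 0 in both lines. Fibroblast markers summed to between 26.9 and 35.8 CPM in B16F10 luc2 and to between 3.05 and 5 CPM in WT31, carried in B16F10 luc2 by Col1a2, Col1a1 and Pdgfrb, with Col3a1, Dcn, Lum and Thy1 under 1 CPM in both. The part of these marker levels in the results was not tested, and in such bulk libraries fewer cells of a type and less RNA per cell cannot be told apart. Depth was even, with 24246815 to 25843286 estimated counts per library. Log2 CPM values correlated across genes with r between 0.9869 and 0.994 within a line and between 0.8421 and 0.8569 between the lines. WT31 replicate 5 had the lowest median r with its own line (0.9895, beside 0.9912 to 0.9936 in the other libraries). WT31 replicate 4 stood apart in a few genes. Of the genes with a mean of at least 20 CPM in B16F10 luc2 and at most 1 count in each of the other 4 WT31 libraries, 17 in number, it held 0.222% of the level in B16F10 luc2. The same measure was at most 0.00621% in each of the other WT31 libraries, over 6 genes, and 0.00921% to 0.0412% of the WT31 level in the B16F10 luc2 libraries. The genes were chosen anew for each library, so the sets differ. Genes with over 1 count in replicate 4 are not in those of the other WT31 libraries. Chchd10 and the number of genes found in B16F10 luc2 alone are given with and without that library.

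WT31 and B16F10 luc2 differed in most of the genes they express. Of 15247 genes tested with voom and limma, 11105 had a Benjamini-Hochberg adjusted p under 0.05, which is 72.8%, and they split evenly into 5555 higher in WT31 (36.4%) and 5550 lower (36.4%). With a change of at least 2-fold required as well, 2706 genes were higher (17.7%) and 2088 were lower (13.7%). The median log2 fold change was -0.001 and the median absolute value 0.6, at a median standard error of 0.11. In 61.6% of the tested genes the values of the 5 WT31 libraries did not overlap those of the 5 B16F10 luc2 libraries. The counts of every gene group were read against these shares. Mean levels are given as CPM ± SD over 5 libraries, with WT31 first where a pair is given, and log2 fold changes of WT31 minus B16F10 luc2 (log2FC) as estimate ± standard error. Genes called higher or lower are higher or lower in WT31 with an adjusted p under 0.05. The genes named are those with the largest changes, the leading and the core members of each list, and further list members that were chosen as examples after their values were seen.

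**Figure D1:**
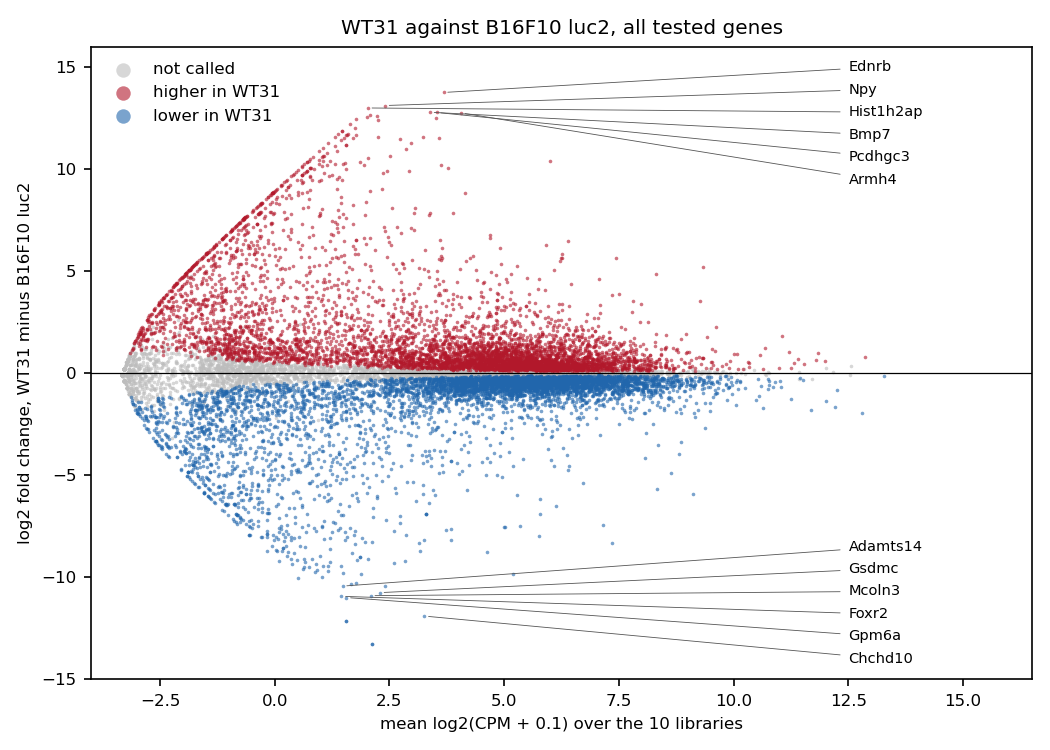
Log2 fold change of WT31 minus B16F10 luc2 (vertical axis) against the mean of log2(CPM + 0.1) over the 10 libraries (horizontal axis) for the 15247 tested genes, 1 point per gene. Red points were called higher in WT31 and blue points lower, and the labels mark the 6 named genes with the largest change in each direction, from log2FC 13.77 for Ednrb to log2FC -11.91 for Chchd10.

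At both ends stood genes that one line expressed and the other nearly lacked. Ednrb, the endothelin receptor of melanoblasts, had the largest log2FC among the named genes. It lay at 1028, 884, 983, 779 and 1201 CPM in the 5 WT31 libraries and at 0 to 6.24 counts in the 5 of B16F10 luc2 (log2FC 13.77 ± 0.58, adjusted p = 4.7e-17). Every WT31 library was high and every B16F10 luc2 library near 0. Next came Npy, which encodes neuropeptide Y, with 256 ± 67 CPM in WT31 and 2 counts in the 5 B16F10 luc2 libraries together. A level against 0 counts is given as at least so many fold, with 3 counts per library as the floor, which covers counting error only. Bmp7, a ligand of the BMP family, reached 607 ± 39.8 CPM, Cd200, an immunoregulatory surface protein, 167 ± 33.6 CPM, and the homeobox factor Prrx1, known as a regulator of mesenchymal cells, 151 ± 8.82 CPM, with at most 8, 1 and 1 counts of them in a B16F10 luc2 library. Armh4 (1136 ± 266 CPM), Stk26, a kinase of the germinal center family (115 ± 10.4 CPM), Ptn, Nkd1 and Nkd2 followed, together with Pcdhgc3 and the histone gene Hist1h2ap, for which 66.2% and 93.4% of the 31-base stretches of their transcripts also occur in other genes, so that their counts are uncertain.

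Fewer genes were found in B16F10 luc2 and nearly absent from WT31. With at least 10 CPM in the expressing line and at most 3 counts in every library of the other, 106 tested genes were expressed in WT31 alone and 30 in B16F10 luc2 alone. Without WT31 replicate 4 the second number was 59, and leaving out a B16F10 luc2 library gave 108 to 112 for the first. Chchd10, a protein of the mitochondrial intermembrane space, was lowest. It lay at 411, 367, 401, 413 and 337 CPM in B16F10 luc2 and at 0.0759, 0, 0, 1.69 and 0.148 CPM in WT31, in the order of the replicates (log2FC -11.91 ± 1.03, adjusted p = 8e-11, and -12.93 without WT31 replicate 4). The membrane glycoprotein gene Gpm6a (0.0539 ± 0.12 against 67.2 ± 4.25 CPM), the forkhead gene Foxr2 (0.0385 ± 0.086 against 60.6 ± 4.2 CPM, like Gpm6a at 0 in all WT31 libraries but replicate 4), the gasdermin Gsdmc (0.161 ± 0.278 against 129 ± 11.5 CPM), the protease Adamts14 (0.0616 ± 0.117 against 56.6 ± 8.51 CPM), Arhgap30, Scarf2, Lsp1, Gstk1, Zfp575 and the ephrin receptor Epha3 (0.083 ± 0.0553 against 78 ± 16.6 CPM) were also at this end. The libraries of the lines did not overlap for any of the 24 genes at these ends, as the choice of these genes required.

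Kit and Ednrb, which encode receptors that act upstream of MITF, were much higher in WT31, while Mitf itself was lower. Of 26 tested regulators of the melanocyte lineage, 14 were higher and 11 lower (53.8% and 42.3%), with a median log2FC of 0.44. With at least 10 counts required in each library the numbers were equal (9 and 9). Kit, the receptor of stem cell factor, lay at 515, 440, 539, 458 and 701 CPM in WT31 and at 8.81, 7.01, 5.07, 5.78 and 7.81 CPM in B16F10 luc2 (log2FC 6.27 ± 0.19, adjusted p = 4.6e-20). Every WT31 library was far above every B16F10 luc2 library. Its ligand gene Kitl was the reverse, with 0.32 ± 0.0942 CPM in WT31 and 6.95 ± 0.683 CPM in B16F10 luc2 (log2FC -4.41 ± 0.26, adjusted p = 3.4e-14). Foxd3, a factor of neural crest cells, was found in WT31 alone (38.8 ± 5.51 CPM against 0 counts, at least 320-fold), and the inhibitor of bHLH factors Id4 (29.3 ± 8.05 against 0.0166 ± 0.0371 CPM) and Lef1 (94.4 ± 10.3 against 0.216 ± 0.203 CPM), the nuclear partner of beta-catenin, were higher in the same way. Erbb3, a neuregulin receptor of the neural crest lineage, was 5.95-fold higher (168 ± 22 against 28.3 ± 4.57 CPM).

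Mitf lay at 444, 341, 444, 325 and 524 CPM in WT31 and at 649, 773, 592, 667 and 780 CPM in B16F10 luc2 (log2FC -0.75 ± 0.13, adjusted p = 7.6e-06). The highest WT31 value was below the lowest of B16F10 luc2, at a change of less than 2-fold. Its activators Sox10 (log2FC 0.55) and Pax3 (log2FC 0.32) were slightly higher, and so was the melanocortin receptor Mc1r (log2FC 0.88, 483 ± 163 against 252 ± 17.4 CPM). In DESeq2 the log2FC of Sox10 was 0.56 but was not called (adjusted p = 0.33, beside 5.8e-08 to 0.33 over the alternatives). Ets1 (log2FC -1.2), Mef2c (log2FC -1.12), Bhlhe40 (log2FC -1.13) and Tfap2a (log2FC -0.73) were lower.

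The pigment genes split into a group that was higher in WT31 and a group that was higher in B16F10 luc2. Of 22 tested genes of melanin synthesis and the melanosome matrix, 10 were higher and 10 lower, with a median log2FC of 0. Tyr, which encodes tyrosinase, the rate-limiting enzyme of melanin synthesis, lay at 3541, 3821, 4318, 3739 and 4490 CPM in WT31 and 1191, 1115, 1141, 1230 and 993 CPM in B16F10 luc2 (log2FC 1.81 ± 0.16, adjusted p = 8.1e-11). Its paralog Tyrp1 was the reverse, at 3055, 2554, 4733, 3837 and 4657 CPM and 14306, 14290, 13498, 14046 and 13712 CPM (log2FC -1.93 ± 0.22, adjusted p = 1.7e-08). Neither gene overlapped between the lines. Pmel, which forms the fibrils of the melanosome, was also lower, at 1178, 1396, 2217, 1938 and 2517 CPM against 6646, 6063, 5982, 6781 and 5196 CPM (log2FC -1.78 ± 0.2, adjusted p = 9.1e-09). Dct, the third member of the tyrosinase family, lay at 6833 ± 1071 CPM in WT31 and 5298 ± 202 CPM in B16F10 luc2, a difference that was not called although every WT31 library lay above every B16F10 luc2 library (adjusted p = 0.099, and 0.0019 to 0.42 over the alternatives, under the threshold in 4 of them). Per length, Dct was the most abundant of these in WT31, at 5802 ± 969 TPM, the deposited unit that is scaled for transcript length, followed by Mlana at 4557 ± 874, Tyrp1 at 2844 ± 709, Tyr at 1639 ± 164 and Pmel at 1470 ± 441 TPM. In B16F10 luc2 Tyrp1 led at 9721 ± 347 TPM, followed by Pmel at 4429 ± 364, Dct at 4245 ± 132, Mlana at 2265 ± 231 and Tyr at 392 ± 23.4 TPM, and there the means of Pmel and Dct, as those of Tyr and Pmel in WT31, differed by less than the SD of Pmel. There were 1.72 ± 0.327 TPM of Tyrp1 per TPM of Tyr in WT31 and 24.9 ± 1.78 in B16F10 luc2.

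Several transporter and channel genes of the pigment list changed by 10-fold or more. Oca2, which sets the pH of the melanosome, was 14.9-fold higher (113 ± 23 against 7.52 ± 0.877 CPM), the channel gene Trpm1 11.8-fold (2212 ± 717 against 186 ± 50.5 CPM) and the cystine transporter Slc7a11, which feeds pheomelanin synthesis and glutathione, 16.9-fold (252 ± 65.8 against 14.8 ± 3.96 CPM). Mcoln3, an ion channel of endosomes and lysosomes whose mutation causes the varitint-waddler coat color, was the reverse, with 113 ± 4.65 CPM in B16F10 luc2 and at most 9 counts in a WT31 library, the highest being replicate 4. Apoe, which takes part in the formation of PMEL fibrils, was 23.2-fold lower (17.5 ± 1.16 against 409 ± 51.9 CPM), Gpnmb 3.14-fold lower (2697 ± 507 against 8353 ± 458 CPM), and Slc45a2 1.65-fold lower. Among 49 genes of melanosome biogenesis and transport, 21 were higher and 25 lower, mostly by less than 2-fold, and on log2(TPM + 1) the order turned (20 and 16). The exceptions included the motor gene Myo7a (22 ± 3.75 against 282 ± 15.7 CPM) and the small GTPase gene Rab17 (0.502 ± 0.0593 against 36.5 ± 4.23 CPM), both lower, while Rab27a (log2FC -1.02), Myo5a (log2FC -0.73) and Mlph (log2FC -0.75), which carry melanosomes to the cell edge, and Rab38 (log2FC -1.05), which sorts cargo to the melanosome, were lower by about 2-fold or less and Kif13a (log2FC 1.91) was higher.

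Tyr and Tyrp1 differed in opposite directions, and their promoters hold the same 11 bases, AGTCATGTGCT, the M-box that contains an E-box of the kind MITF binds. The RefSeq windows on GRCm38.p6 are printed for that reason, from 250 bases before to 50 after the start, with the M-box in capitals. Its letters were taken as the longest run around CATGTG that these windows share, so a match in both was fixed in advance. They were searched on both strands and were present in 7 of 32851 promoter windows (0.0213%), those of Tyr and Tyrp1 included. Tyr lies at chr7:87493463-87493762 on the minus strand and Tyrp1 at chr4:80833963-80834262 on the plus strand.
Tyr: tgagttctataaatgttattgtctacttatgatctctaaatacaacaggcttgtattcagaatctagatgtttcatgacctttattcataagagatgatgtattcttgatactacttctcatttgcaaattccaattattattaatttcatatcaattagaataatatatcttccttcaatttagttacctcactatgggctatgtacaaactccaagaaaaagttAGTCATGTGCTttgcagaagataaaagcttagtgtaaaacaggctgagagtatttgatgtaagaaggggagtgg
Tyrp1: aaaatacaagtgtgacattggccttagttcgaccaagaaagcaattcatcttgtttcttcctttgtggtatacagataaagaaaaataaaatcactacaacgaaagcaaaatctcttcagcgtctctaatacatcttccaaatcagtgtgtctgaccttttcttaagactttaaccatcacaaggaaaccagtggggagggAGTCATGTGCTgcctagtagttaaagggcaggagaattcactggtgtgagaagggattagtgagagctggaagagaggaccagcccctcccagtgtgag
The shorter E-box letters CATGTG or CACGTG, on either strand, were present in 20.4% of all windows. Of the 19 genes of the pigment list with a window, 9 held them, 5 of 8 that were higher in WT31 and 3 of 8 that were lower. These are matches of letters and no evidence of binding.

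The gene altered in the label of WT31 was checked first among the drivers. Cdkn2a, which encodes the cell cycle inhibitor p16INK4a and p19ARF, had 70, 85, 72, 69 and 76 counts in WT31 and no count in any B16F10 luc2 library, where 0 allows up to 3 counts. Its mean was 2.83 CPM in WT31, 203 CPM in HCmel12, 0.0614 CPM in D4M and 0 CPM in RET. Counts per gene do not show which exons the reads of WT31 came from, so they do not test the deletion itself. The neighbor Cdkn2b, which encodes p15INK4b, had 1001, 1477, 948, 1189 and 889 counts in WT31 and 1 count in all 5 B16F10 luc2 libraries together.

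Other genes near it on chromosome 4 were nearly absent from B16F10 luc2 too. On GRCm38, Cdkn2a lies at 89274471 to 89294653 and Cdkn2b at 89306299 to 89311039. Further along, Dmrta1 had 91.1 to 169 counts in WT31 against 0 to 3 in B16F10 luc2, and Elavl2, a neuronal RNA-binding protein gene that ends at 91400785, had 126 to 167 against 0 to 1 counts. Low levels were not particular to B16F10 luc2. Elavl2 had a mean of 0 CPM in RET and HCmel12 and 0.17 CPM in D4M. Dmrta1 had 0.125 CPM in RET, 0.627 CPM in HCmel12 and 8.81 CPM in D4M. Cdkn2b had 0 CPM in RET and D4M and 11.4 CPM in HCmel12. Genes expressed in both lines lay on both sides. Mtap, which ends at 89181081, had 423 CPM in B16F10 luc2 and 231 CPM in WT31 (log2FC -0.87 ± 0.08, adjusted p = 4.2e-10), and Klhl9, Caap1, Plaa and Ift74 had at least 15.5 CPM in both lines. No stretch of 4 or more neighboring protein-coding genes with at most 3 counts in every library of a line and at least 1 CPM in the other was found. Here Zfp352, which had under 1 CPM in both lines, lies between Dmrta1 and Elavl2. Sp5, Erich2 and Gad1 on chromosome 2 made a stretch of 3 in B16F10 luc2, and Cdkn2a, Cdkn2b and Dmrta1 were not counted as one because an unrounded estimated count of Dmrta1 lay just over the limit.

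Among the drivers, Nras was 1.53-fold higher (167 ± 17.7 against 108 ± 2.76 CPM, log2FC 0.61 ± 0.06, adjusted p = 5e-10), and Hras was lower (log2FC -0.54). The counts are of the mouse gene as annotated, and whether reads of the transgene were assigned to it was not tested. Trp53 was not called (206 ± 19 against 196 ± 11.2 CPM, adjusted p = 0.41). Braf (log2FC -1.1), Map2k2 (log2FC -0.98) and Akt1 (log2FC -1.44, 432 ± 13.4 against 1173 ± 27.1 CPM) were lower, and Map2k1 (log2FC 0.45) and the regulatory subunit gene Pik3r1 (log2FC 1.92) higher. The D-type cyclins differed in both directions. Ccnd1 lay at 1750, 1959, 1697, 1807 and 1509 CPM in WT31 and 325, 371, 344, 384 and 370 CPM in B16F10 luc2 (log2FC 2.28 ± 0.15, adjusted p = 1.8e-13), whereas Ccnd2 (191 ± 30 against 668 ± 33.2 CPM, log2FC -1.82) and Ccnd3 (log2FC -0.62) were lower. Their partner Cdk6 was 2.67-fold higher and Cdk4 was not called (635 ± 42.8 against 619 ± 9.83 CPM). Of 51 tested genes of the list, 25 were higher and 16 lower.

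Genes known as output of the ERK cascade differed in both directions. Of 43 tested genes, 21 were higher, 17 of them by at least 2-fold, and 12 were lower (48.8% and 27.9%). Etv5, a PEA3 family factor induced by ERK, lay at 321, 497, 353, 416 and 405 CPM in WT31 and 18.3, 10.4, 7.63, 11 and 13.4 CPM in B16F10 luc2 (log2FC 5.07 ± 0.18, adjusted p = 1.5e-18). Its relatives Etv4 (109 ± 21.2 against 5.37 ± 2.17 CPM) and Etv1 (138 ± 17.2 against 16 ± 3.06 CPM) were higher as well. So were the feedback inhibitors Spry4 (151 ± 52.9 against 4.92 ± 2.04 CPM), Dusp6 (247 ± 51.4 against 91.7 ± 9.2 CPM), Spred1 (237 ± 11.1 against 86.7 ± 7.59 CPM) and, by less, Dusp4 (log2FC 0.4), whose libraries overlapped. The immediate-early gene Egr1 was lower (3.35 ± 1.18 against 16.3 ± 10.2 CPM, adjusted p = 0.043), but its call was lost when any single WT31 library or B16F10 luc2 replicate 2, 3 or 4 was left out (adjusted p up to 0.09, and 2.9e-05 to 0.09 over all alternatives). Fos (2.25 ± 0.654 against 5.19 ± 1 CPM), Junb (7.45 ± 1.65 against 15.1 ± 1.87 CPM) and Ier2 (14 ± 2.94 against 37 ± 4.18 CPM) were lower too, and Myc was not called (101 ± 18.6 against 113 ± 33.4 CPM). Plaur, the urokinase receptor gene, was 12.6-fold lower. Of 45 tested p53 targets, 17 were higher and 12 lower (37.8% and 26.7%). Eda2r (22 ± 6.6 against 0.0808 ± 0.00263 CPM), Gdf15 (26.9 ± 7.79 against 0.162 ± 0.0844 CPM) and Plk2 (94.2 ± 12.1 against 11 ± 2.12 CPM) were higher, Cdkn1a, the gene of p21, was 1.9-fold higher (360 ± 59.9 against 187 ± 8.82 CPM), and Mdm2 (log2FC -0.31), Ccng1 (log2FC -0.37) and Bax (log2FC -0.55) were slightly lower.

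Most listed genes of the WNT pathway were higher in WT31. This list was added after several of its members had appeared among the largest differences, so its count is a description only. Of 54 tested genes, 37 were higher (68.5%) and 8 lower, with a median log2FC of 1.5 beside -0.001 for all genes. Nkd1, a feedback inhibitor that WNT signals induce, lay at 529, 589, 630, 663 and 740 CPM in WT31 and at 0 to 7.01 counts in B16F10 luc2. Axin2, the feedback inhibitor most used as a readout of beta-catenin, lay at 125, 135, 131, 139 and 171 CPM and 30.1, 14.4, 20.9, 19.6 and 17.3 CPM (log2FC 2.81 ± 0.14, adjusted p = 9.4e-16). Other genes known as targets or feedback inhibitors were higher as well, among them Nkd2 (192 ± 30.8 CPM against 0 to 2 counts), Sp5 (76.3 ± 10.3 CPM against 0 to 1 counts), Notum (26.6 ± 3.08 against 0.137 ± 0.0453 CPM), Apcdd1 (256 ± 40 against 0.112 ± 0.0499 CPM), Tcf7 (192 ± 16.4 against 4.77 ± 1.03 CPM) and Znrf3 (log2FC 0.91). Secreted antagonists were present too, with Dkk3 at 507 ± 53.7 CPM and Wif1 at 67.3 ± 33.2 CPM in WT31 and at most 13 and 2 counts in B16F10 luc2. The receptors Ror2 (97.6 ± 11.9 CPM, at least 806-fold), Ror1 (19.9 ± 2.04 against 0.0159 ± 0.0219 CPM), Fzd3 (32.2 ± 2.81 against 3.94 ± 0.558 CPM) and Fzd9 (20.3 ± 4.91 against 0.88 ± 0.208 CPM) were higher. Lgr6 (0.175 ± 0.166 against 0.924 ± 0.313 CPM), Fzd5 (log2FC -0.68) and Fzd4 (log2FC -0.45), also receptors, and the inhibitor Dact3 (log2FC -0.97) were lower, and the receptors Fzd7 and Lrp5 were not called. Fzd4 lost its call without WT31 replicate 5 (-0.3, adjusted p = 0.062, beside 0.00072 to 0.15 over the alternatives), and Lrp5 was higher without WT31 replicate 4 or 5 or B16F10 luc2 replicate 4. Of the ligands, Wnt4 was expressed in WT31 (14.3 ± 5.65 against 0.3 ± 0.21 CPM), and Wnt5a had no count in either line. Genes of the shared core differed by less than 2-fold, with Ctnnb1 at log2FC 0.22, Apc at log2FC 0.34 and Lrp6 at log2FC -0.5, and Gsk3b and Axin1 were not called.

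Most genes of a list of neural crest and dedifferentiation markers were higher too. Of 40 tested, 25 were higher (62.5%) and 10 lower, with a median log2FC of 1.62. Gfra1, a receptor of GDNF, reached 365 ± 21.6 against 0.78 ± 0.184 CPM, and Ngfr, the neurotrophin receptor that marks neural crest-like melanoma cells, 60.9 ± 35.3 against 3.34 ± 1.18 CPM. Sox2 had 10.5 ± 2.81 CPM in WT31 and 0 counts in B16F10 luc2. Lower were Sox9 (1.39 ± 0.6 against 4.58 ± 1.49 CPM), Cav1 (1.53 ± 0.328 CPM in B16F10 luc2), Cav2 (29.4 ± 3.57 against 87.3 ± 4.57 CPM) and Loxl2 (0.272 ± 0.0665 against 12.1 ± 2.24 CPM), and Axl was not called (32.8 ± 11.6 against 43.2 ± 9.91 CPM) unless WT31 replicate 1 or B16F10 luc2 replicate 1 or 4 was left out (adjusted p 0.0055 to 0.4 over the alternatives). Msx1, a homeobox factor of the neural crest, had at most 3 counts in a WT31 library and 0 in a B16F10 luc2 library, too few to give a fold. Hox genes, which set position along the body axis, were mostly lower, with 22 of 25 tested lower and 2 higher, and 9 of the lower ones lie in the HoxA cluster on chromosome 6, where Hoxa4 was higher (1.49 ± 0.321 against 0.276 ± 0.0701 CPM). Hoxa10 (1.14 ± 0.315 against 45.5 ± 4.81 CPM), Hoxa11 (0.415 ± 0.271 against 15.4 ± 1.39 CPM) and Hoxd13 (0.0154 ± 0.0344 against 11 ± 0.857 CPM) were nearly absent from WT31, and Hoxb9, the most abundant by counts in both lines, was higher (188 ± 28.1 against 70.9 ± 18.4 CPM).

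**Figure D2:**
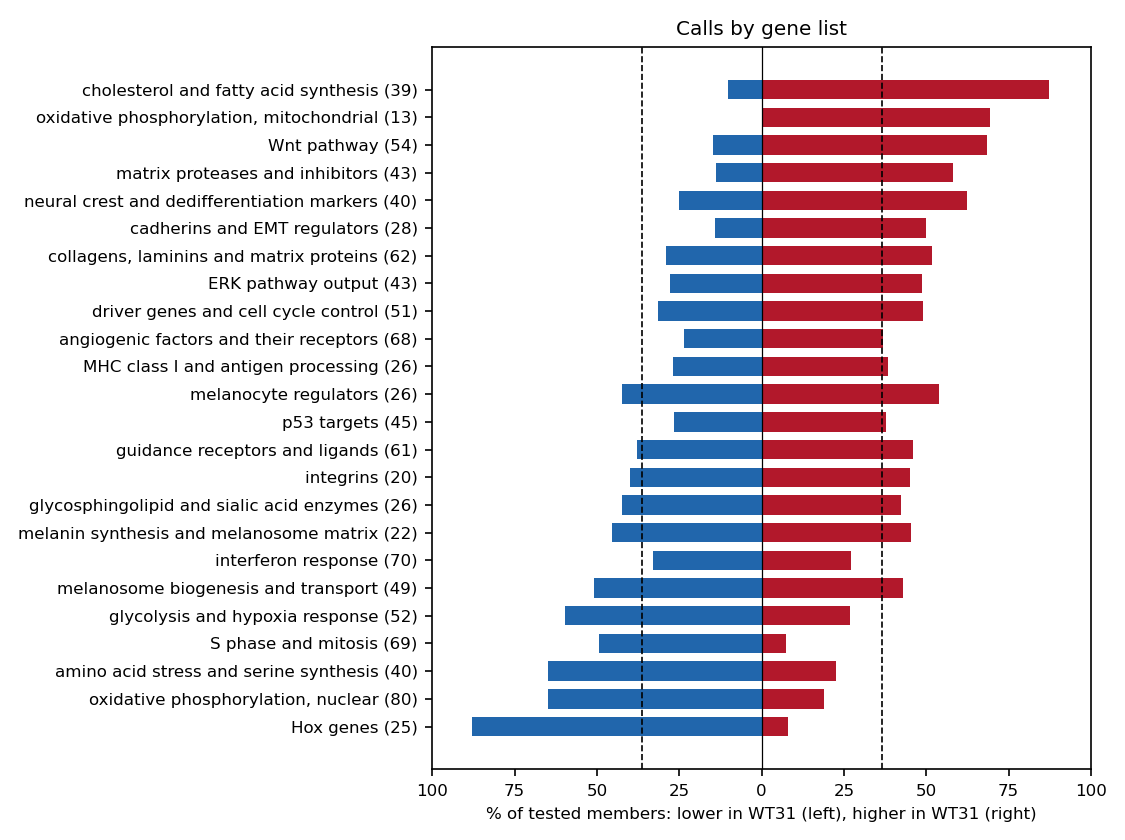
Share of the tested members of the gene lists, those of other cell types, the qPCR and the sex chromosomes left out, that were called higher in WT31 (red, to the right) or lower (blue, to the left), with the number tested in parentheses. The dashed lines mark the share over all tested genes, 36.4% higher and 36.4% lower, and the lists of cholesterol synthesis (87.2% higher) and Hox genes (88% lower) extend farthest past them among the lists drawn.

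Integrins, the receptors through which cells hold on to matrix and to vessel walls, differed in both directions. Of 20 tested subunits, 9 were higher and 8 lower, a lead that became a tie without WT31 replicate 1 (9 and 9) and turned among changes of at least 2-fold (7 higher and 8 lower). Itga4, whose product pairs with the beta1 chain to bind VCAM1 and fibronectin, lay at 725, 556, 554, 554 and 422 CPM in WT31 and 253, 249, 222, 232 and 229 CPM in B16F10 luc2 (log2FC 1.23 ± 0.13, adjusted p = 6.3e-09). Every WT31 library was above every B16F10 luc2 library, and both lines lay above its mean of 112 ± 19.1 CPM in RET, 92.2 ± 11 CPM in D4M and 109 ± 25.8 CPM in HCmel12. Itga2, a collagen receptor chain, lay at 11, 7.07, 5.59, 7.23 and 5.5 CPM in WT31 and at 1 to 7 counts in B16F10 luc2, so that it was low in both. The laminin receptor chain Itga6 (422 ± 128 against 86 ± 13.2 CPM), the collagen receptor chain Itga1 (57.9 ± 19.6 against 7.16 ± 1.02 CPM) Itga8 (88.6 ± 13.6 against 1.73 ± 0.669 CPM) and Itgb8 (5.66 ± 2.65 against 0.105 ± 0.0787 CPM) were higher, and the shared chains Itgb1 (log2FC 0.38) and Itgav (log2FC 0.69) slightly so. Itgb3, which pairs with the alpha-v chain in a vitronectin receptor, was 10.2-fold lower (6.04 ± 1.24 against 61.1 ± 6.43 CPM), Itgb5 16.3-fold lower (2.1 ± 1.12 against 31.7 ± 5.14 CPM) and Itga5, the classical fibronectin receptor chain, 2.81-fold lower (38.6 ± 3.14 against 109 ± 6.58 CPM).

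Genes of the matrix that these receptors bind were mostly higher. Of 62 tested genes of collagens, laminins and other matrix proteins, 32 were higher (51.6%), all but 1 of them by at least 2-fold, and 18 were lower. Of the basement membrane genes, Nid2, which encodes nidogen 2, had 74.5 ± 5.99 CPM in WT31 and 0 to 1 counts in B16F10 luc2, and Lama1 26.9 ± 3.46 CPM and 0 to 1 counts. Lama4 (231 ± 22.8 against 62.2 ± 2.43 CPM), Lamb1 (86.5 ± 15.8 against 6.27 ± 0.548 CPM), Lamc1 (338 ± 39.1 against 161 ± 6.92 CPM), the collagen IV chains Col4a1 (45.9 ± 10.9 against 10.9 ± 1.69 CPM) and Col4a2 (40.1 ± 9.83 against 10.1 ± 0.53 CPM) and the perlecan gene Hspg2 (169 ± 30.9 against 76.2 ± 10.4 CPM) were higher too. Fn1, which encodes fibronectin, lay at 316, 168, 273, 300 and 157 CPM in WT31 and 61.9, 99.6, 83, 70.3 and 88.5 CPM in B16F10 luc2 (log2FC 1.55 ± 0.22, adjusted p = 7.6e-07). Outside the basement membrane, tenascin C (Tnc) had 7.33 ± 5.36 CPM in WT31 and 0 counts in B16F10 luc2, and Col11a1, of a fibrillar collagen, 41.6 ± 8.1 CPM and 0 to 2 counts. Lower were Nid1 (11.9 ± 2.28 against 28.6 ± 3.53 CPM), Col4a5 (0.0225 ± 0.0332 against 15.1 ± 2.06 CPM), Col1a2 (0.904 ± 0.435 against 16.7 ± 1.52 CPM) and Fbln5, which encodes an elastic fiber protein (17 ± 5.15 against 434 ± 31.8 CPM). Sparc, the most abundant gene of the list by counts, changed by log2FC 0.46.

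Proteases that cut matrix were mostly higher. Of 43 tested proteases and inhibitors, 25 were higher (58.1%) and 6 lower (14%). Mmp2, a gelatinase, lay at 309, 220, 223, 236 and 213 CPM in WT31 and 7.22, 5.97, 6.23, 5.94 and 5.81 CPM in B16F10 luc2 (log2FC 5.25 ± 0.16, adjusted p = 1.1e-19). The membrane-bound Mmp15 (222 ± 16.7 against 12.6 ± 1.51 CPM) and Mmp16 (24.9 ± 0.704 against 0.0159 ± 0.0219 CPM), the plasminogen activator Plat (142 ± 24.7 against 14.1 ± 1.77 CPM) and its inhibitor Serpine2 (174 ± 46.3 against 0.097 ± 0.0591 CPM) were higher, as was Mmp14, which activates MMP2 (298 ± 20 against 175 ± 3.28 CPM). Timp3 (0.228 ± 0.15 against 25.3 ± 4.29 CPM) and Timp1 (5.69 ± 1.07 against 19.6 ± 0.832 CPM), inhibitors of these proteases, were lower, whereas the inhibitors Timp4 (0.487 ± 0.269 against 0.00825 ± 0.0184 CPM), Timp2 (log2FC 0.27) and Reck (log2FC 0.6) were higher. Mmp9 had at most 3 counts in a WT31 library and 3 in a B16F10 luc2 library. Among cadherins and regulators of epithelial-mesenchymal transition, 14 of 28 were higher and 4 lower, with Cdh3 (17 ± 5.75 CPM against 0 counts), L1cam (82.3 ± 14.7 against 7.54 ± 2.18 CPM) and Zeb2 (295 ± 40.5 against 143 ± 6.15 CPM) higher, Mcam (138 ± 60.2 against 424 ± 50.3 CPM) and Alcam (3.5 ± 0.753 against 21.7 ± 3.27 CPM) lower, and Cdh2 (151 ± 21.8 against 169 ± 12.3 CPM), Vim (1488 ± 205 against 1314 ± 143 CPM) and Cdh1 (0.478 ± 0.156 against 0.36 ± 0.165 CPM) not called. Cdh2 passed the threshold without WT31 replicate 1 or B16F10 luc2 replicate 1 and Vim without WT31 replicate 2 or 5 or B16F10 luc2 replicate 3, with adjusted p between 0.026 and 0.73 for Cdh2 and between 0.011 and 0.28 for Vim over the alternatives.

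Vessel growth in the metastases was a readout of the study, and genes of angiogenic factors and their receptors were therefore listed. They showed no common direction. Of 68 tested genes, 25 were higher (36.8%), 16 lower and 27 were not called, beside 36.4% higher among all genes. Vegfa, the main growth factor of endothelial cells, lay at 25.5, 26.3, 22.1, 23.4 and 18.7 CPM in WT31 and 30, 28.4, 35.6, 33.7 and 24.5 CPM in B16F10 luc2 (log2FC -0.39 ± 0.19, adjusted p = 0.064). The groups overlapped, and the difference was not called. It was called lower with the replicate block, with the 10 libraries of both lines alone and without B16F10 luc2 replicate 5 (the last -0.47, adjusted p = 0.035, beside 0.011 to 0.16 over the alternatives). Vegfb (log2FC 0.43), Vegfc (log2FC 0.8, 33.3 ± 2.69 against 19.1 ± 1.34 CPM) and Pdgfa (log2FC 1.12, 50.9 ± 12.2 against 23 ± 1.79 CPM) were higher by a little over 2-fold at most. Ptn, which encodes the heparin-binding growth factor pleiotrophin, lay at 181, 234, 198, 185 and 179 CPM in WT31 with at most 1 count in B16F10 luc2, and Adm, which encodes the vessel peptide adrenomedullin, at 34 ± 5.62 against 0.161 ± 0.0623 CPM. Inhibitors of vessel growth went both ways, since Timp3, Timp1, Sema3b and Sema3e of the same list were lower and Thbs2 was not called. Serpinf1, which encodes the antiangiogenic factor PEDF, lay at 440, 644, 531, 555 and 513 CPM and 10.7, 10.5, 11.1, 9.66 and 10.5 CPM (log2FC 5.66 ± 0.21, adjusted p = 2.3e-18), and the gene of thrombospondin 1, Thbs1 (71.3 ± 22.2 against 5.07 ± 0.626 CPM), Col18a1, the source of endostatin (10.1 ± 3.75 against 0.248 ± 0.114 CPM), and Vash1 (24.7 ± 1.98 against 2 ± 0.64 CPM) were higher too.

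Receptors and ligands differed in both directions. Fgfr1, a receptor of fibroblast growth factors (49.4 ± 6.78 against 0.217 ± 0.0753 CPM), and the ligand gene Pdgfc (6.72 ± 1.18 against 0 ± 0 CPM) were higher. Nrp2, a coreceptor of VEGFC and semaphorins, lay at 15.5, 5.12, 4.39, 7.39 and 4.03 CPM in WT31 and 433, 506, 450, 483 and 434 CPM in B16F10 luc2 (log2FC -6.17 ± 0.25, adjusted p = 2.1e-17). Met, the receptor of hepatocyte growth factor, lay at 270, 199, 285, 190 and 416 CPM and 1816, 1809, 1593, 1695 and 1642 CPM (log2FC -2.71 ± 0.14, adjusted p = 5.1e-15). Its ligand gene Hgf had at most 1 count in a WT31 library and 0 in a B16F10 luc2 library. Angpt2 (0.713 ± 0.131 against 13.6 ± 2.13 CPM), Pdgfb (0.107 ± 0.0746 against 3.56 ± 1.06 CPM), Lgals3, which encodes galectin-3 (16.9 ± 6.07 against 673 ± 49.6 CPM), and Thbs3 (0.29 ± 0.137 against 25.4 ± 2.41 CPM) were lower, Nrp1 was higher (43.5 ± 7.15 against 19.9 ± 2.09 CPM), and Pgf was not called (1.28 ± 0.498 against 1.16 ± 0.327 CPM). Semaphorin, plexin and ephrin receptor genes differed in both directions. Of 61 tested guidance genes, 28 were higher and 23 lower, with Sema6d (709 ± 167 against 47.8 ± 7.03 CPM), Sema6a (158 ± 11.1 against 7.02 ± 0.713 CPM), Sema3c (74.4 ± 15.7 against 3.38 ± 0.925 CPM) and Epha5 (25.4 ± 4.23 against 0.165 ± 0.0504 CPM) higher and Plxnd1 (97.9 ± 12.9 against 1116 ± 191 CPM), Sema3b (3.6 ± 1.51 against 71 ± 3.75 CPM) and Epha7 (0.0538 ± 0.0516 against 14 ± 1.4 CPM) lower.

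**Figure D3:**
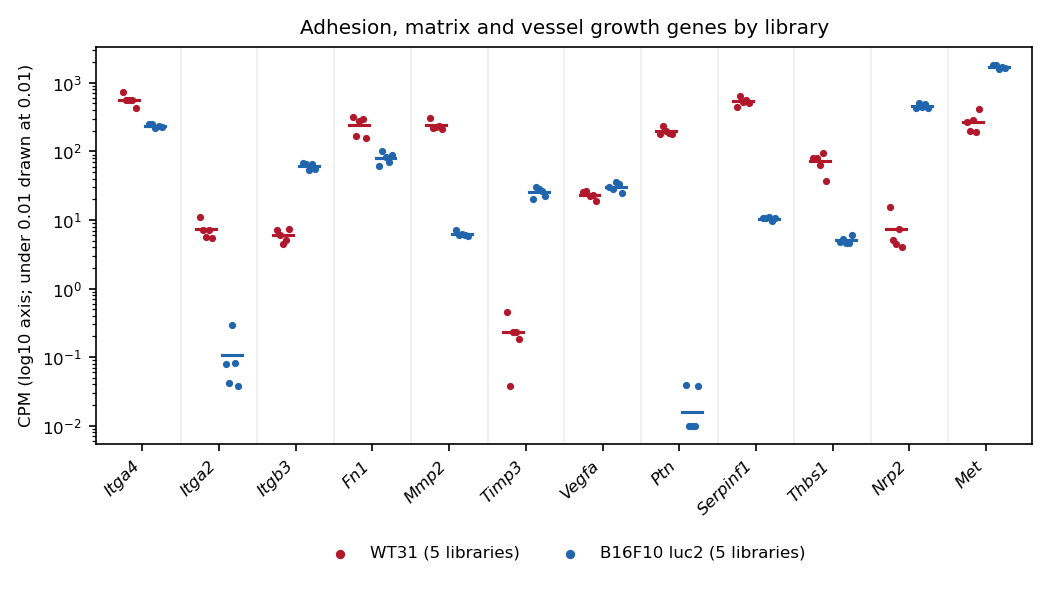
Expression of 12 genes of adhesion, matrix and vessel growth in the 10 libraries, as CPM on a log10 axis, with 1 point per library (red WT31, blue B16F10 luc2) and a bar at the mean of 5. Vegfa overlaps between the lines, Serpinf1, Ptn and Mmp2 are higher in every WT31 library, and Nrp2, Met and Itgb3 are lower. Values below 0.01 CPM are drawn at 0.01.

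Most genes of energy metabolism were lower in WT31. Of 52 tested genes of glycolysis and the hypoxia response, 31 were lower (59.6%) and 14 higher (26.9%), with a median log2FC of -0.58. Gapdh, a glycolytic enzyme often used as a reference gene, lay at 2441, 2521, 2469, 2541 and 2773 CPM in WT31 and 6939, 6686, 6949, 7091 and 5493 CPM in B16F10 luc2 (log2FC -1.37 ± 0.07, adjusted p = 1.7e-15). The values did not overlap. Most genes of the steps from aldolase to lactate were lower, with Aldoa (log2FC -1.14), Tpi1 (log2FC -1.78), Pgk1 (log2FC -1.56), Pgam1 (log2FC -1.17), Eno1 (log2FC -1.28), Pkm (log2FC -0.76) and Ldha (log2FC -1.31), but the aldolase gene Aldoc was higher (24.1 ± 3.77 against 1.43 ± 0.327 CPM). The glucose transporter Slc2a3 (0.195 ± 0.169 against 32.4 ± 2.78 CPM) and the lactate exporter Slc16a3 (0.367 ± 0.106 against 27 ± 8.45 CPM) were nearly absent from WT31, while the glucose transporter Slc2a1 changed little (log2FC -0.32). Of the hexokinases, Hk1 was higher (187 ± 18.6 against 52.1 ± 1.95 CPM) and Hk2 lower (40.5 ± 5.58 against 94.8 ± 4.21 CPM). The hypoxia-induced carbonic anhydrase gene Car9 was expressed at 5.82 ± 0.722 CPM in B16F10 luc2 and 0.0484 ± 0.052 CPM in WT31, whereas the lipoprotein receptor gene Vldlr (84.1 ± 6.72 against 0.00769 ± 0.0172 CPM) and the secreted glycoprotein gene Stc2 (1.81 ± 0.508 against 0 ± 0 CPM) of the same list were higher. Members on chromosome 6, where lower genes were frequent throughout, made up 7 of the 31, Gapdh, Tpi1, Hk2 and Slc2a3 among them. Of the 31-base stretches of Pgk1, 54.7% also occur in other genes, mostly pseudogenes, as do 37.1% of Pgam1, 34.7% of Pkm, 28.5% of Eno1 and 28.1% of Gapdh, so their counts are less certain.

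Nuclear genes of oxidative phosphorylation were lower by small amounts, 52 of 80 (65%) with a median log2FC of -0.3, 8 of them by 2-fold or more. Among those were Sdhb (105 ± 6.14 against 359 ± 15 CPM), Ndufa5 (28.8 ± 1.62 against 95.7 ± 3.66 CPM), Cycs (78.4 ± 2.19 against 232 ± 11.5 CPM) and the coactivator gene Ppargc1a (31.5 ± 6.27 against 165 ± 24.2 CPM), a regulator of mitochondrial biogenesis. Members on chromosome 6 made up 5 of the 52. Of the genes of the mitochondrial genome, 9 of 13 were higher and 4 were not called, with a median log2FC of 0.69. Their summed level ranged from 36733 to 58387 CPM in WT31 and from 25346 to 39838 CPM in B16F10 luc2, ranges that overlap.

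Genes of lipid synthesis were higher in WT31 almost throughout. Of 39 tested genes of cholesterol and fatty acid synthesis, 34 were higher (87.2%, beside 36.4% of all genes) and 4 lower, with a median log2FC of 0.88. Scd1, a fatty acid desaturase, lay at 660, 646, 641, 528 and 679 CPM in WT31 and 66.2, 75.8, 92.6, 99.3 and 61.9 CPM in B16F10 luc2 (log2FC 3.01 ± 0.13, adjusted p = 1.3e-16). Hmgcs1, an early enzyme of the mevalonate pathway, lay at 264, 277, 299, 228 and 406 CPM and 94.2, 74.3, 93.6, 93.7 and 77.5 CPM (log2FC 1.75 ± 0.13, adjusted p = 6.3e-12). Further along the pathway, Idi1 (252 ± 49.5 against 72.8 ± 3.14 CPM), Nsdhl (179 ± 29.1 against 47.3 ± 7.67 CPM) and Tm7sf2 (67.2 ± 5.83 against 5.33 ± 0.963 CPM) were higher, and so were their regulators Srebf1 (log2FC 1.39) and Srebf2 (log2FC 0.72). The exceptions included Fasn, which encodes fatty acid synthase (255 ± 22.1 against 580 ± 59.6 CPM), Acaca (log2FC -0.31) and Acacb (1.97 ± 0.38 against 6.3 ± 0.773 CPM), which were lower, and Insig1, which was not called.

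Genes of the amino acid stress response were lower. Of 40 tested genes of this response and of serine synthesis, 26 were lower (65%) and 9 higher, with a median log2FC of -0.77. Members on chromosome 6 made up 3 of the 26. Asns, which encodes asparagine synthetase, lay at 66.2, 84, 81.6, 108 and 90.5 CPM in WT31 and 252, 187, 216, 221 and 158 CPM in B16F10 luc2 (log2FC -1.27 ± 0.18, adjusted p = 8.9e-07). Trib3, a pseudokinase induced by stress, lay at 0.987, 0.646, 0.621, 0.962 and 0.628 CPM and 36.6, 27.1, 31.6, 32.9 and 24 CPM (log2FC -5.29 ± 0.87, adjusted p = 5.3e-06). Both were separated completely. The transcription factors Atf4 (186 ± 21 against 344 ± 42.8 CPM), Atf5 (log2FC -1.19) and Ddit3 (12.1 ± 1.16 against 54.7 ± 10 CPM), the first enzyme of serine synthesis Phgdh (61.7 ± 15.3 against 275 ± 22 CPM), the folate enzymes Mthfd2 (50.8 ± 6.98 against 224 ± 39.9 CPM) and Shmt2 (log2FC -1.32) and the glycyl-tRNA synthetase Gars (log2FC -1.58) were lower. The amino acid transporters Slc7a11 (log2FC 4.08), Slc3a2 (1280 ± 172 against 375 ± 51.2 CPM) and Slc7a5 (730 ± 227 against 357 ± 38.5 CPM) were higher, whereas Slc7a3 (0 ± 0 against 0.193 ± 0.106 CPM) and Slc1a4 (log2FC -0.88) were lower and Slc7a1 and Slc1a5 not called. Slc1a5 was higher without WT31 replicate 1 or B16F10 luc2 replicate 4 and in edgeR and DESeq2 (adjusted p 0.0015 to 0.26 over the alternatives), and Slc7a1 was lower without WT31 replicate 5.

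The promoters of Asns, Trib3 and Slc7a11 are printed because they share the letters of an amino acid response element, to which ATF4 is known to bind, and the first pair was lower while the third gene was higher. The letters TGATGNAA, read on either strand and printed in capitals, were present in 3.97% of the RefSeq windows searched. Of the 32 genes of the list with a window, 11 held them, 8 of 20 lower genes and 2 of 7 higher genes. On GRCm38.p6 the windows are chr6:7693160-7693459, chr2:152344011-152344310 and chr3:50443564-50443863, all on the minus strand.
Asns: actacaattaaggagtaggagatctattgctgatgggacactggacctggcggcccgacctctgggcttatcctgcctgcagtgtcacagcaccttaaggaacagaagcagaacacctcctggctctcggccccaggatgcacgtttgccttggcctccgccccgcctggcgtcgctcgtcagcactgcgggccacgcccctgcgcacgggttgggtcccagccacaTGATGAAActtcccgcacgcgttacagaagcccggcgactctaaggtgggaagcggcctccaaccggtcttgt
Trib3: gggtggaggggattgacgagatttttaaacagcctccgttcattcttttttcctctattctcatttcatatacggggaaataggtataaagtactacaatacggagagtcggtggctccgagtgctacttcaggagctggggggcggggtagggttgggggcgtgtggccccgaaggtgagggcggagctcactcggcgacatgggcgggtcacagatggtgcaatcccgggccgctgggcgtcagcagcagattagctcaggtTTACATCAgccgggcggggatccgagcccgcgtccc
Slc7a11: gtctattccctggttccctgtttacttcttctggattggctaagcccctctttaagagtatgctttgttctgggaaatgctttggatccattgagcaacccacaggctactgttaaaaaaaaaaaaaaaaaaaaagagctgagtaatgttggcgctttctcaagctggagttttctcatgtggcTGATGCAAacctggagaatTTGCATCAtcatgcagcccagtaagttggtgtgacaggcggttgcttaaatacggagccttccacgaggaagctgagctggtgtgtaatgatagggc
In the same search, the sterol element TCACNCCAC was present in 1 of 28 genes of the lipid list, Hmgcs1 (1.24% of all windows), and the TCF/LEF letters CTTTGAA or CTTTGAT in 5 of 52 genes of the WNT list, Sp5 among them (8.65% of all windows).

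Genes of immune recognition showed no common direction. Of 26 tested genes of MHC class I and antigen processing, 10 were higher and 7 lower. B2m, the light chain of MHC class I, lay at 395, 368, 422, 369 and 398 CPM in WT31 and 206, 213, 237, 238 and 175 CPM in B16F10 luc2 (log2FC 0.88 ± 0.1, adjusted p = 2.6e-08). The heavy chain genes were low in both lines and opposed, with H2-K1 at 7.29 ± 2.08 against 2.23 ± 0.547 CPM and H2-D1 at 22.5 ± 3.78 against 34.7 ± 3.47 CPM, and they share 22.8% and 26.9% of their 31-base stretches with other genes, mostly each other. The peptide transporter Tap1 (0.928 ± 0.32 against 0.987 ± 0.269 CPM) and the immunoproteasome gene Psmb8, with at most 1 count in any library of either line, were nearly silent, and Tapbp was 3.08-fold higher. Of 70 tested interferon response genes, 19 were higher and 23 lower, an order that turned with at least 10 counts in each library (15 and 10). Sensors of nucleic acids were among the lower. Cgas, the sensor of cytosolic DNA, lay at 8.85, 8.56, 8.7, 8.71 and 8.67 CPM in B16F10 luc2 and 0.0759, 0.076, 0.0388, 0.155 and 0 CPM in WT31 (log2FC -6.97 ± 0.4, adjusted p = 2.2e-14), and Ifih1, which encodes the RNA sensor MDA5, at 0.0609 ± 0.0636 against 4.43 ± 0.628 CPM, while Ddx58, which encodes the sensor RIG-I, was higher (10.6 ± 1.31 against 3.64 ± 0.578 CPM) and Tmem173, which encodes STING, was not called (44.9 ± 8.45 against 47.2 ± 3.98 CPM). Ifit2 was nearly absent from WT31 (0.122 ± 0.114 against 50.7 ± 2.05 CPM), and Ifitm3 was 7.73-fold higher (80.7 ± 22.2 against 10.3 ± 1.61 CPM). The gene of the checkpoint ligand PD-L1, Cd274, was low in both lines and lower in WT31 (0.577 ± 0.341 against 2.64 ± 0.452 CPM).

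Most genes of proliferation were lower or not called in WT31. Of 69 genes of S phase and mitosis, 30 were not called, 34 were lower (49.3%) and 5 higher, with a median log2FC of -0.27. Mki67 lay at 422, 353, 305, 340 and 155 CPM in WT31 and 309, 387, 304, 265 and 368 CPM in B16F10 luc2 (adjusted p = 0.56). The groups overlapped, and WT31 replicate 5 was lowest of all. Pcna (458 ± 50.3 against 459 ± 14.1 CPM) and Top2a (513 ± 127 against 551 ± 86 CPM) were not called. The lower genes with the largest changes were Cdt1 (52.2 ± 2.87 against 165 ± 18.2 CPM) and Mcm2 (225 ± 22 against 653 ± 16.3 CPM), of the licensing of DNA replication, Rrm2 (250 ± 43 against 599 ± 43.4 CPM), of nucleotide supply, and Uhrf1 (193 ± 17.4 against 413 ± 28.3 CPM), of the maintenance of DNA methylation. E2f8 (195 ± 25.8 against 79.1 ± 10.1 CPM), a repressor among the E2F factors, was higher. The summed level of the list ranged from 6048 to 10945 CPM in WT31 and from 10983 to 12365 CPM in B16F10 luc2, and WT31 replicate 5 was again the lowest, apart from the next WT31 value of 9534 CPM. Without it 13 genes of the list were higher and 25 lower, and without WT31 replicate 3 3 were higher. On log2(TPM + 1), 8 were higher and 21 lower. The log2FC of Mki67 was 0.12 without WT31 replicate 5 and was not called either.

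The genes that the study measured by qPCR, and Gak and Srp72, the reference genes it normalized them to, were looked at in this pair too. Tyr was higher, as given above, and Tenm3, a teneurin, had 3.82 ± 0.646 CPM in WT31 and 0 counts in B16F10 luc2. Gak (log2FC 0.48), Kazn (log2FC 0.36), Glrb (log2FC 0.37), St6galnac3 (log2FC -0.41) and Unc5c (log2FC -0.46) differed by less than 2-fold, and the call of Kazn was lost without WT31 replicate 5 or B16F10 luc2 replicate 3 or 4 (adjusted p 0.0052 to 0.082 over the alternatives). Thbs2, Tfap2b, Ly6e and Stambpl1 had at most 3, 4, 2 and 0 counts in any library of either line, and Srp72 had 167 ± 17.4 against 179 ± 4.8 CPM, a difference that was called only without WT31 replicate 4 or 5 or with a replicate block (adjusted p 0.012 to 0.5). Enzymes that build gangliosides and sialic acid caps differed in both directions, with 11 higher and 11 lower of 26, among them Gne, the first enzyme of sialic acid synthesis (301 ± 86.6 against 59 ± 1.41 CPM), and St6gal1 (173 ± 20.1 against 47.9 ± 7.26 CPM) higher and St3gal6 (49.2 ± 17.9 against 206 ± 7.02 CPM) lower.

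The Y-linked genes separated the lines as well. Ddx3y lay at 68.4, 63.8, 67.9, 67.4 and 71.8 CPM in WT31 and had 0 counts in B16F10 luc2, and Uba1y (76.7 ± 3.28 CPM), Eif2s3y (38.9 ± 1.42 CPM), Uty (20.9 ± 2.18 CPM) and Kdm5d (29.4 ± 0.907 CPM) were likewise expressed in WT31, with at most 11.2 counts of any of them in a B16F10 luc2 library. Uba1y shares 61.6% of its 31-base stretches with other genes. Xist, the RNA of the inactive X chromosome, had at most 3.02 counts in a WT31 library and 3 in a B16F10 luc2 library.

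**Figure D4:**
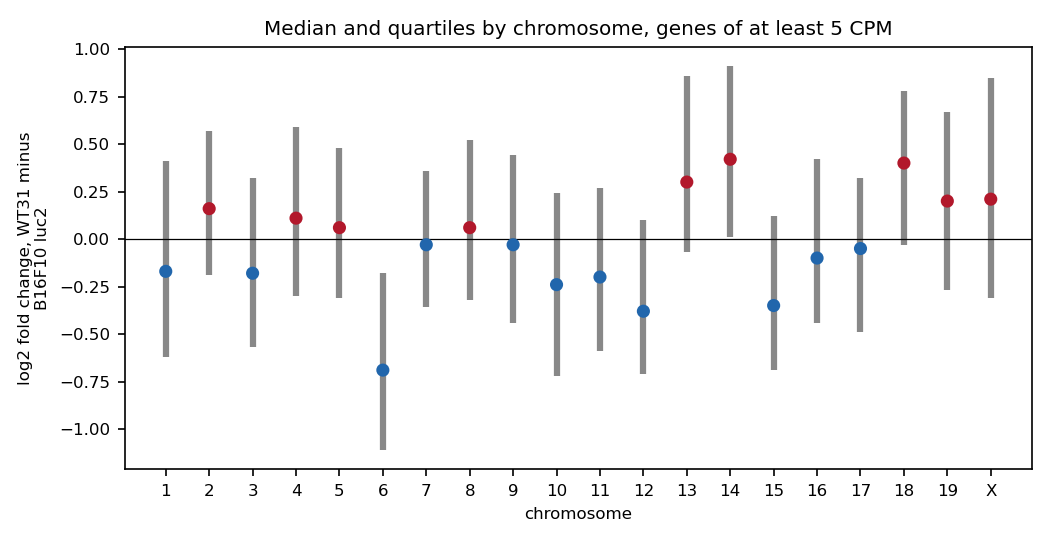
Log2 fold change of WT31 minus B16F10 luc2 by chromosome, for tested genes with a mean of at least 5 CPM over the 10 libraries. Points are medians and bars run from the lower to the upper quartile over genes. Chromosome 6 lies lowest, at -0.69, and chromosomes 13, 14 and 18 lie between 0.3 and 0.42. Chromosome Y, with few genes and a median beyond the axis, is not drawn.

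Differences were not spread evenly over the chromosomes. On chromosome 6, 497 of 776 tested genes were lower (64%) and 137 higher (17.7%), with a median log2 fold change of -0.69 over the 518 genes with a mean of at least 5 CPM. It ran along the whole chromosome, and the medians of the 12 windows of 10 Mb with at least 20 such genes lay between -1.05 and -0.39. Each WT31 library showed it, with medians against the B16F10 luc2 mean between -0.68 and -0.66. Mitf, Braf, Met, Ccnd2, Gpnmb, Plxnd1, Asns, Gapdh, Hk2 and 9 genes of the HoxA cluster lie there and were lower beside a shift of the same sign in most of their chromosome. Chromosomes 12 (-0.38) and 15 (-0.35) had lower medians as well, whereas 14 (0.42), 18 (0.4) and 13 (0.3) had higher ones, with 234 of 414 tested genes of chromosome 18 higher and 72 lower. All other autosomes lay between -0.24 and 0.2. Without chromosome 6, 5418 genes were higher and 5053 lower of 14471 tested. These are descriptions of expression, and the number of chromosome copies was not measured.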

How the data were processed

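RNA was taken from cultures of 5 murine melanoma cell lines, 5 libraries each, and sequenced as mRNA at BGI, on an instrument that the sources name differently. Per the labels and the study's methods, the authors trimmed the reads with Trim Galore (0.6.4), assigned them with kallisto (given as 0.4.6 in the submitters' processing notes) to the mouse transcriptome of GRCm38.p6 and deposited estimated counts per gene, which need not be whole (24.5% to 26.4% of all values were not), and TPM, which the authors scaled for transcript length and to a sum of 1000000. The TPM files of 24 of the 25 libraries were used here. kallisto divides reads that several genes share, so values of near-identical genes are uncertain. Over 20% of the 31-base stretches of 28 of the 291 genes named also occur in other genes of GENCODE M21, and over 50% of those of Pgk1, Phgdh, Uba1y, Pcdhgc3 and Hist1h2ap. Strand use by the counting is not given in the sources used here.

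From the estimated counts, genes were filtered with filterByExpr and scaled with TMM factors in edgeR (4.0.16, R 4.3.3), and voom and limma (3.58.1) were fitted to all 25 libraries with 1 mean per line. P-values were adjusted over all tested genes by the Benjamini-Hochberg method and called under 0.05. CPM use the scaled library sizes, and their SD is over 5 libraries. Counts of 14670 genes were also simulated with 1 mean per gene for all lines, and a few genes above a minimum count were then changed in WT31. The same fit recovered 91 of 100 genes changed by 1 on the log2 scale and 99 of 100 changed by 2, with 6 false calls. Far fewer genes differed there than between the real lines, so the simulation does not test the fit where most genes differ. Libraries of a line differed by more than sampling noise (chi-square per degree of freedom 6.67 to 78.4). Floors of 3 counts cover counting error only. A fold given as at least a number is the mean of the expressing line over 3 counts per library, and with such genes at their bound the printed medians of the lists stayed the same.

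Gene lists and members were chosen with earlier results of these data known. Named are the 12 genes with the largest changes in each direction among protein-coding genes with at least 10 CPM and separate groups, the 3 leading members of each list in each direction with at least 5 CPM, the core members, the altered and qPCR genes and the neighbors of Cdkn2a. Of the genes in the text, 92 fall outside this rule, and some that meet it are not reported here. Promoter windows come from RefSeq (GRCm38.p6), gene positions from GENCODE M21. Windows of chromosome 18 were left out of the motif search, as were repeats of the same sequence for a gene. Shares of all windows are over the rest. Alternatives were library sizes without TMM, DESeq2's size factors, the quasi-likelihood test of edgeR, DESeq2 (1.42.0) on rounded counts, other filters, the 10 libraries alone, a replicate block, limma on log2(TPM + 1), stricter calls and each library left out.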

Additional observations from a re-analysis of the deposited data

Results flagged for a closer look

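In 580 groups of 5 libraries, 1 per line for each gene named and each summed list, 38 held a library whose distance to its nearest neighbor was over 0.71 of the range (6.55%), where chance alone gives about 1 in 20. Of these, 12 fell in WT31 replicate 4, 10 in WT31 replicate 1 and 6 in WT31 replicate 5. Each value is given in CPM with that of the next library of the line.

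WT31 replicate 4 was the highest WT31 library for genes that B16F10 luc2 expresses, Chchd10 (1.69, next 0.148), Gsdmc (0.654, next 0.076), Arhgap30 (0.462, next 0.114), Mcoln3 (0.346, next 0.0759), Scarf2 (0.308, next 0.0388), Adamts14 (0.269, next 0.0388), Gpm6a (0.269, next 0), Lsp1 (0.231, next 0.0388) and Foxr2 (0.192, next 0). It also was highest for Hras (59.2, next 56) and lowest for Elavl2 (4.85, next 6.02) and Scd1 (528, next 641). The origin of these counts was not tested.

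WT31 replicate 1 was the highest WT31 library for Axl (53.2, next 30.4), Ets1 (253, next 185), Itgb5 (4.02, next 1.97), Mef2c (37, next 26.2), Mmp2 (309, next 236), Sox2 (15.6, next 9.42), Tap1 (1.48, next 0.931), Tnc (16.7, next 7.16) and the summed neural crest markers (2508, next 2195), and the lowest for E2f8 (149, next 202). WT31 replicate 5 was highest for Cdh3 (27, next 16.6), Mmp14 (333, next 296) and Sdhb (116, next 103) and lowest for Rrm2 (175, next 258), Uhrf1 (163, next 195) and the summed genes of S phase and mitosis (6048, next 9534), and WT31 replicate 2 was highest for Fzd9 (28.9, next 19.2).

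In B16F10 luc2, replicate 1 was highest for Fzd7 (101, next 69.9), Oca2 (9.05, next 7.39) and the summed ERK pathway output (1800, next 1609) and lowest for Thbs3 (21.2, next 25.6). Replicate 2 was highest for Sparc (2734, next 2524) and replicate 3 for Itga2 (0.289, next 0.0825). Replicate 5 was highest for Bmp7 (0.308, next 0.0825) and Fasn (685, next 570) and lowest for Gapdh (5493, next 6686).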

How the results depend on the processing

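The number of genes called stayed within 1.5 times of the 11105 reported, 5555 higher and 5550 lower, under every alternative but 1. The counts of called, higher and lower genes were 11056, 6005 and 5051 with library sizes alone, which moved the median log2 fold change by 0.07, 11081, 5604 and 5477 with DESeq2's size factors, 11065, 5554 and 5511 with the quasi-likelihood test of edgeR, 11059, 5619 and 5440 with DESeq2, 12835, 6593 and 6242 without a filter, 8577, 4360 and 4217 with at least 10 counts in each library, 10500, 5393 and 5107 with the 10 libraries of both lines, 9693, 5590 and 4103 on log2(TPM + 1), 9994, 4991 and 5003 at an adjusted p under 0.01, and 10903 to 11019 called when single libraries were left out. The exception was the added limit of 2-fold, which left 4794 called, 2706 higher and 2088 lower. The median of chromosome 6 was -0.69 and the lowest of the chromosomes drawn in 19 of 19 alternatives. It was -0.62 with library sizes alone, -0.68 with DESeq2's size factors and in DESeq2, -0.7 in edgeR, -0.66 with at least 10 counts, -0.67 with the 10 libraries, -0.58 on TPM and -0.7 to -0.68 when single libraries were left out. In the 26 lists counted, 17 had more members higher than lower, and 17 to 20 did so under the alternatives.

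The replicate numbers did not pair the libraries (same-number correlations -0.0484 to 0.0261, none the best for its number), and the replicate block gave 11132 calls, 5580 higher and 5552 lower. No named gene lost its call with it, Srp72 and Vegfa passed the threshold, and the qPCR list had 4 lower members in place of 2.

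Of the 282 named genes with over 5 counts in a library, 9 changed sign somewhere, none of them called in the reported fit. On TPM these were Mki67 (0.03), Myc (0.01), Pcna (0.12), Srp72 (0.06), Tmem173 (0.11) and Fzd7 (0.02). Pcna was also 0.06 with library sizes alone, 0.01 in DESeq2, 0.02 with at least 10 counts and 0.01 with the 10 libraries. With single libraries left out, the log2FC ranged from -0.24 to 0.12 for Mki67, -0.23 to 0.02 for Myc, -0.17 to 0.03 for Fzd7, -0.05 to 0.05 for Pcna, -0.07 to 0.27 for Pgf, -0.28 to 0.01 for Tap1, -0.18 to 0 for Tmem173 and -0.22 to 0.05 for Top2a. Outside the stricter calls, 13 named genes lost a call somewhere. These were Sox10 and Mlana in DESeq2 (log2FC 0.56 and 0.89, adjusted p = 0.33 each), Acaca, Ccng1, Fzd4, Lgr6, Mdm2, Sema3e, Slc2a1 and St6galnac3 on TPM, H2-D1, Egr1 and Kazn without a filter, Fzd4 with the 10 libraries, and Egr1, Fzd4 and Kazn with single libraries left out. The cause was not tested. Calls were gained by Cdk4, Dct, Lrp5, Slc1a5 and Vim with library sizes alone, Dct, Lrp5, Slc1a5, Trp53 and Vim on TPM, Lrp5, Slc1a5 and Vim with at least 10 counts, Slc1a5 in edgeR and DESeq2, Dct, Lrp5 and Vegfa with the 10 libraries, Dct without a filter, and Axl, Cdh2, Lrp5, Slc1a5, Slc7a1, Srp72, Vegfa and Vim with single libraries left out.

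With at least 10 counts in each library, genes absent from a line drop out, and fewer members were higher among matrix proteins (32 to 15), WNT genes (37 to 20), neural crest markers (25 to 12), angiogenic factors (25 to 16), guidance genes (28 to 16), cadherins (14 to 8), melanocyte regulators (14 to 9) and sex chromosome genes (6 to 2, with 3 lower in both). Fewer were lower among Hox genes (22 to 6), interferon genes (23 to 10), guidance genes (23 to 10), angiogenic factors (16 to 9), neural crest markers (10 to 6), integrins (8 to 4), WNT genes (8 to 5), MHC class I genes (7 to 4, also without a filter and on TPM) and cadherins (4 to 2). On TPM, fewer members were lower among genes of melanosome transport (25 to 16), integrins (8 to 4), S phase (34 to 21), WNT genes (8 to 4), ganglioside enzymes (11 to 7) and lipid synthesis (4 to 2). S phase genes counted 5 higher and 8 or 9 with library sizes alone, edgeR, DESeq2 or TPM. Below 3 counts per library of 24246815 or more a gene could not be told from absent.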
